A study of Mus musculus with 12 samples.

Results

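The genes described here are 5 tubulin folding cofactors (Tbca, Tbcb, Tbcc, Tbcd and Tbce) and 5 subunits of the cytosolic chaperonin CCT (Tcp1, Cct2, Cct3, Cct5 and Cct8), measured in mouse embryonic fibroblasts. They were taken by name: every probe set to which the array annotation gives exactly 1 symbol, that of one of these genes, was included. This gave 23 of 22626 probe sets and 10 of 12393 genes. There were 10 probe sets for the cofactors (4 for Tbca, 2 each for Tbcc and Tbcd, 1 each for Tbcb and Tbce) and 13 for CCT (6 for Cct3, 3 for Cct2, 2 for Cct8, 1 each for Tcp1 and Cct5).

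The cells were primary fibroblasts, grown from wild-type mice or from mice lacking HtrA2 (also called Omi), a serine protease of the space between the mitochondrial membranes. At passage 4 they received vehicle or 1 µM rotenone for 4 h. Rotenone blocks complex I of the respiratory chain and also binds tubulin. Each genotype with each treatment made a group of 3 Affymetrix arrays, so there were 4 groups and 12 arrays in all. All cells were cultured in the same serum-containing medium. Strain, embryonic age and any pooling of embryos are not given in the labels used here. No label says that replicates were separate cultures, so every p-value reflects the spread among these arrays alone, and that spread may be technical.

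CCT, also called TRiC, is a double-ring chaperonin of the cytosol that encloses newly made actin and tubulin and folds them with ATP. Prefoldin hands unfolded chains to it. Tubulin released from CCT is not yet able to assemble: TBCB and TBCE hold alpha-tubulin, TBCA and TBCD hold beta-tubulin, and TBCC joins the complex of both and triggers GTP hydrolysis, which frees the heterodimer that builds microtubules.

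Values are log2 levels made by the authors, and a difference of 1 is a doubling. A gene was read through its brightest probe set, the one with the highest mean over the 12 arrays. Where another probe set of a gene is quoted, the text says so. Levels of different probe sets were set against each other only to find a gene's brightest one and to mark dim ones, and all differences are between arrays within a probe set. Differences were tested with limma, with Benjamini-Hochberg adjustment over all 22626 probe sets and a threshold of 0.05. All intervals are unadjusted 95% intervals from the same fit. In cells measured in bulk, fewer cells of a type and less RNA per cell cannot be told apart.

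Medians of the arrays lay between 7.53 and 7.58, and any pair of arrays correlated at 0.982 or more. For the 3 arrays of wild type with rotenone, the labels disagree: the genotype field says knockout, and the title, source name and description all say wild type. Htra2, through its brightest probe set, lay between 9.02 and 9.14 on these arrays, between 8.83 and 9.32 on wild-type vehicle arrays, and between 7.57 and 7.87 on all 6 knockout arrays. They were kept as wild type. The other Htra2 probe set, 1436269_s_at, was not lower in the knockout (a difference of 0.40 in vehicle and 0.23 in rotenone, limma adjusted p = 1 and 0.838). All 10 fibroblast markers, such as Col1a1 and Vim, lay above the lowest 40 percent of probe sets, as did all 10 genes described here. Markers of other cell types lay above it in part: 3 of 7 leukocyte, 3 of 5 epithelial, 2 of 5 muscle, 1 of 5 endothelial and 1 of 5 neural.

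One array stood apart. Wild-type rotenone replicate 3 held the highest or the lowest of the 12 values for 32.3% of all genes, against 8.62% to 25.1% for each other array. Among the 10 folding genes it held the highest value of 6 (Tbcd, Tcp1, Cct2, Cct3, Cct5 and Cct8) and the lowest of 2 (Tbca and Tbcb). Estimates for the 10 genes that it moves by over 1.5 times, or whose sign it turns, are given without it too where they are named. Those rotenone and genotype estimates come from the fit without the replicate number, unless a fit with the number as a block is named. Wild type with rotenone then has no array numbered 3, unlike the other groups. The plot of levels by array shows wild-type rotenone replicate 3 as the outermost point in 8 of the 10 panels.

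**Figure D1:**
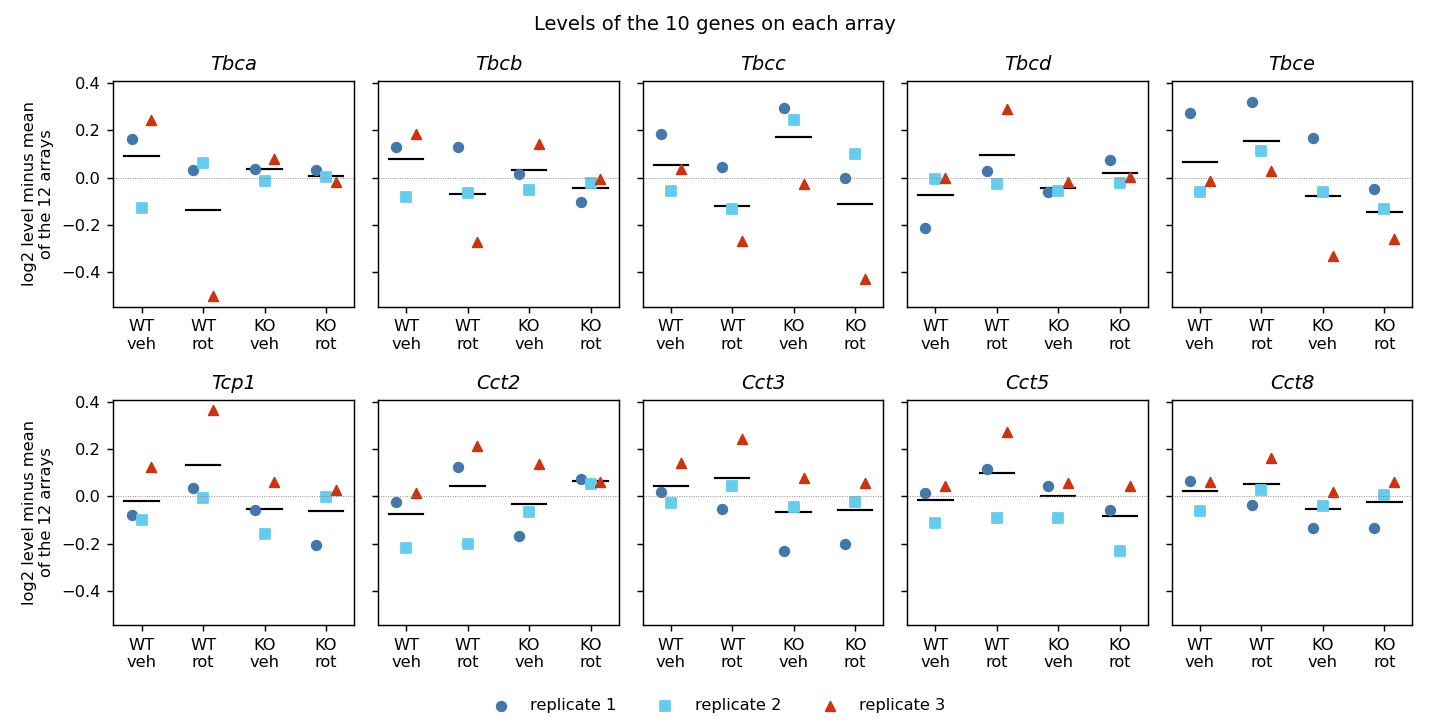
Log2 level of each gene's brightest probe set on each array, minus that gene's mean over the 12 arrays (y axis), for the 4 groups (x axis; WT, wild type; KO, knockout; veh, vehicle; rot, rotenone). Points are arrays marked by replicate number and black bars are group means of 3; the replicate 3 triangle of wild type with rotenone is lowest for Tbca and Tbcb and highest for Tbcd and the 5 CCT genes.

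The promoters of the 4 genes whose brightest probe sets passed a test in these data (Tcp1, Cct3, Tbcc and Tbce, by replicate number, described further on) are shown first. Each run is the 250 bases before the RefSeq start of the gene, read on its own strand from build GRCm38.p6. Capitals mark a CCAAT box (CCAAT, or ATTGG on the other strand) or a GC box (GGGCGG, or CCGCCC on the other strand).
Tcp1, chr17:12916079-12916328, plus strand: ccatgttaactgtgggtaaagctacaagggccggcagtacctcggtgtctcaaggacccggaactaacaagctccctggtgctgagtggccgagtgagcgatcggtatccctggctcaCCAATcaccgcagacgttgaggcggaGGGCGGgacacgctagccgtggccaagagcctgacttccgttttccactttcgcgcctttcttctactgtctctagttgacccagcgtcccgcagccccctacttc
Cct3, chr3:88296885-88297134, plus strand: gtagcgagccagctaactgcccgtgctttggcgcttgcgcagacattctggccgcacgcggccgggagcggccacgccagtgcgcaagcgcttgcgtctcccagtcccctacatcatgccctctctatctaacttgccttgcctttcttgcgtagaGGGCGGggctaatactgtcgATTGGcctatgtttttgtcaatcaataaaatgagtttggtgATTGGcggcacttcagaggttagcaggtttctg
Tbcc, chr17:46890371-46890620, plus strand: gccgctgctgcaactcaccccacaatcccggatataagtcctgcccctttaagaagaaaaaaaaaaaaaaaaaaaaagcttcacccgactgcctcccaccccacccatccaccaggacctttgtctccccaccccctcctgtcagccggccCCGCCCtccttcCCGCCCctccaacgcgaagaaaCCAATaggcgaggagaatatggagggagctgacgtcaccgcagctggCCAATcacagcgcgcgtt
Tbce, chr13:14039639-14039888, minus strand: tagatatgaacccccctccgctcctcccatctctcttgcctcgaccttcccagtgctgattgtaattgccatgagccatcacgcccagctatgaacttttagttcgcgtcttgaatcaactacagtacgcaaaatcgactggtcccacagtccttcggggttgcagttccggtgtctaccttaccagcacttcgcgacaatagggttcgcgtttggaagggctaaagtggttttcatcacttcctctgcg

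Tcp1 and Tbcc lie on chromosome 17 and hold both boxes, as does Cct3. Tbce holds neither. All 10 genes had such a window, and for Cct2 and Cct5, which have a second one, the first in the table was counted. The GC box was found in 9 of the 10 (all but Tbce), against 32.7% of 32851 windows of the same length. Those windows include further starts of a gene and were not limited to measured or expressed genes. The shares are therefore of unlike sets. The CCAAT box was found in 4 (Cct3, Tbcd, Tcp1 and Tbcc), against 33.8%. The letters CCGGAAG, the core bound by ETS factors, were found in Cct2 and Cct8, against 6.91% of windows. A pair of heat shock element units in the order TTCNNGAA was found in Cct5, against 7.17%. The order GAANNTTC was in none of the 10 counted windows, against 6.69%. The second Cct2 window, not counted, held GAANNTTC with its first base at -42 from the start. The E-box CACGTG and the TATA box TATAAA were in none of the 10, against 6.02% and 12.4%. Both strands were searched, and the boxes marked in the printed windows do not overlap. A match describes the letters and not a bound site.

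None of the 10 folding genes passed the test for rotenone, taken as the mean of the effects in both genotypes (0 of 10 in limma; 0.218% of all genes were called). At an unadjusted p under 0.05 there was 1 of 10, beside 7.94% of all genes. A fit with the number as a block again called 0 of 10, beside 2.47% of all genes, and 1 of 10 had an unadjusted p below 0.05, beside 15.3%. The median difference of the 10 genes was 0.02, beside 0.03 over all genes. The intervals of all 10 lay within 0.5 of 0 on the log2 scale: the lowest bound was -0.45, a 1.37-fold lower level, and the highest was 0.29, a 1.23-fold higher level. Without the block, the median was -0.01 without wild-type rotenone replicate 3, and the sign turned for Cct3 and Cct5. With the block and without that array Cct3 gave 0.0086, with no turn of sign, and Cct5 gave -0.0076. The median with the block ran from 0.0044 to 0.0342 with each array left out. Over all arrays and without the block, 0 of the 23 probe sets were called, beside 0.217% of all probe sets. At an unadjusted p below 0.05 there were 2, beside 7.9%.

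Tbcc, the cofactor that triggers GTP hydrolysis in the final complex, had the largest difference of the 10. Its levels on replicates 1, 2 and 3 were 9.47, 9.23 and 9.33 in wild type with vehicle and 9.33, 9.16 and 9.02 in wild type with rotenone. In the knockout they were 9.59, 9.53 and 9.26 with vehicle and 9.29, 9.39 and 8.86 with rotenone. The treated array was the lower in each of the 6 same-numbered pairs, although treated and untreated levels overlapped within each genotype. Over all genes, 4.91% were lower and 7.24% higher with rotenone in all 6 pairs. The fitted difference of Tbcc was -0.23 (SE 0.10, unadjusted p = 0.0488, limma adjusted p = 0.63). With the block the adjusted p was 0.143. Its other probe set, 1451423_at, differed by -0.08.

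Tbca and Tbcb, which hold beta-tubulin and alpha-tubulin, had estimates of -0.13 (SE 0.10, limma adjusted p = 0.823) and -0.11 (SE 0.08, limma adjusted p = 0.804). Tbca read 11.90, 11.61 and 11.98 in wild type with vehicle and 11.77, 11.80 and 11.23 in wild type with rotenone. In the knockout its levels were 11.77, 11.72 and 11.81 with vehicle and 11.77, 11.74 and 11.72 with rotenone. Thus 11 of the 12 arrays lay between 11.61 and 11.98, and wild-type rotenone replicate 3 lay below all of them. All 4 Tbca probe sets were lowest on that array. Without it the Tbca difference in wild type was -0.05, from -0.23 with it, and the mean over both genotypes was -0.04. Through the other Tbca probe sets the mean was -0.06 for 1434588_x_at and within 0.01 of 0 for the other two. Without that array these 3 estimates were 0.02, 0.07 for 1456205_x_at and 0.08 for 1437907_a_at. For Tbcb the difference in wild type was -0.15 with that array and -0.05 without it, and the mean over both genotypes was -0.06 without it.

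The remaining cofactors showed no called difference either. Tbcd, which also holds beta-tubulin, differed by 0.12 (SE 0.07, limma adjusted p = 0.758) and by 0.02 through its other probe set, 1452194_at. These were 0.07 and -0.09 without wild-type rotenone replicate 3. Tbce, the partner of Tbcb on alpha-tubulin, differed by 0.01 (SE 0.10, limma adjusted p = 0.995), and by 0.04 without that array. The median over the 5 cofactors was -0.11, with 3 estimates below 0, and -0.04 without that array.

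The 5 CCT genes had rotenone estimates from 0.02 to 0.11, with a median of 0.03. Without wild-type rotenone replicate 3 they ran from -0.03 to 0.07, with 3 above 0 and a median of 0.0013. The estimate was 0.07 for Tcp1, the alpha subunit (SE 0.08, limma adjusted p = 0.9). It was 0.02 for Cct3, the gamma subunit (SE 0.08, limma adjusted p = 0.973). The epsilon subunit Cct5 differed by 0.02 and the theta subunit Cct8 by 0.03. Without that array Tcp1 gave 0.01, Cct3 -0.02, Cct5 -0.03 and Cct8 0.0013. With the block as well they gave 0.04, 0.0086, -0.0076 and 0.02. The other 5 probe sets of Cct3 ran from -0.03 to 0.05, and from -0.11 to 0.05 without that array. The second probe set of Cct8, 1436973_at, gave 0.10 (limma adjusted p = 0.795), and 0.15 without it.

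Cct2, the beta subunit, was the CCT gene with the largest rotenone estimate. Its 3 probe sets gave 0.11 (1433535_x_at, limma adjusted p = 0.824), 0.12 (1416037_a_at, 0.763) and 0.26 (1433534_a_at, 0.63). These were 0.07, 0.08 and 0.23 when wild-type rotenone replicate 3 was left out. Through 1416037_a_at the levels on replicates 1, 2 and 3 were 12.00, 11.80 and 12.10 in wild type with vehicle and 12.12, 12.03 and 12.32 with rotenone. In the knockout they were 11.92, 11.91 and 12.05 with vehicle and 11.94, 12.04 and 12.06 with rotenone. Here the treated array was the higher in all 6 pairs, with overlapping groups, as was the case for 6.51% of all probe sets. Through the brightest probe set it was higher in 5 of 6.

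In the genotypes taken apart, limma called 0 of 10 genes for rotenone in wild type and 0 of 10 in the knockout, beside 0.00807% of all genes in each. At an unadjusted p under 0.05 there were 0 in each, beside 4.57% of all genes in wild type and 3.36% in the knockout. The block also gave 0 calls, beside 0.702% and 0.331% of all genes. Interval bounds of the 10 genes were -0.54 and 0.41 in wild type, and -0.60 and 0.36 in the knockout. In wild type the estimates ran from -0.23 to 0.17 with all arrays and from -0.10 to 0.15 without wild-type rotenone replicate 3. With the block and without that array they ran from -0.19 for Tbcc to 0.09 for Tcp1. The lowest knockout estimate was that of Tbcc, -0.28 (SE 0.15, limma adjusted p = 1).

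Tubulins, the clients of this pathway, stood beside these values. Of the 13 measured of 16 listed, 4 fell with rotenone and 0 rose, with a median of -0.63, and 8 fell in the fit with the block. Tubb2a, a beta-tubulin, fell by 1.28 (SE 0.13, limma adjusted p = 0.00241), and Tubb3 fell by 1.37 (SE 0.21, limma adjusted p = 0.0331). Tubb2a read 10.02 to 10.52 on the wild-type vehicle arrays against 8.52 to 9.11 with rotenone, with no overlap. In each of the 6 same-numbered pairs the tubulin median lay between -0.36 and -0.82, while the CCT median lay between -0.02 and 0.20 and the cofactor median between -0.31 and 0.02. Dimmer probe sets of some tubulins gave smaller falls or none. Tubb4b fell by 1.22 through its brightest one. Its others ran from -0.24 to 0.11, and none passed in either fit. The other probe sets of Tubb2a and Tubb5 gave -0.41 and -0.31 and passed only with the block (limma adjusted p = 0.00835 and 0.044). The others of Tuba4a gave -0.50 and -0.10 (limma adjusted p = 0.0365 and 0.848). The difference between the folding genes and the tubulins was not itself tested.

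**Figure D2:**
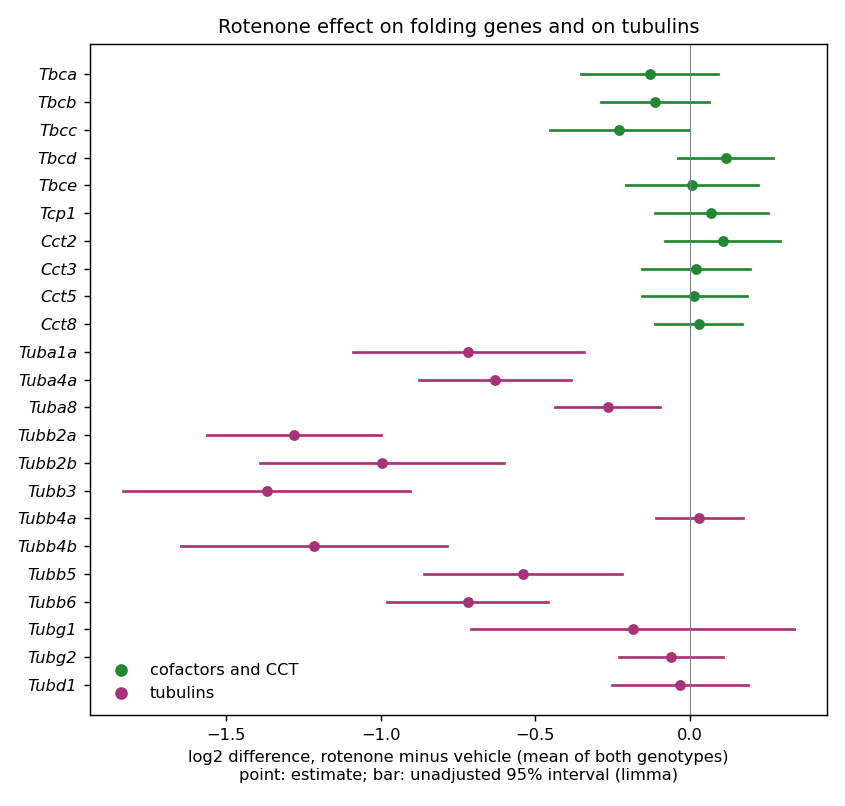
Rotenone minus vehicle, as the mean of both genotypes (x axis, log2 difference), for the 10 folding genes and the 13 measured tubulins (y axis). Points are limma estimates of each gene's brightest probe set from 12 arrays and bars are unadjusted 95% intervals. The folding genes lie between -0.23 and 0.12, whereas Tubb2a, Tubb3 and Tubb4b lie below -1. Dimmer Tubb4b probe sets, not drawn, gave -0.24 to 0.11.

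Other genes of the folding route were read from lists. The 4 other CCT subunit genes on the arrays, Cct4, Cct6a, Cct6b and Cct7, gave 0 calls for rotenone, with or without the block. Cct4, the delta subunit, had the largest estimate, 0.17 (SE 0.06, limma adjusted p = 0.486), and the only unadjusted p under 0.05. Of 11 listed prefoldin, prefoldin-like and phosducin-like genes, 10 were measured and 0 were called in either fit, with 1 at an unadjusted p below 0.05. Their median was -0.11, with 8 of 10 estimates below 0, and the largest was Pdcl at -0.30 (SE 0.09, limma adjusted p = 0.359). In same-numbered pairs 1, 2 and 3 the median was -0.11, 0.02 and -0.43 in wild type and -0.08, 0.03 and -0.14 in the knockout. Wild-type pair 3 holds the array that stood apart. Of these 10 genes, 9 lay above the lowest 40 percent of probe sets.

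Of 9 listed partners of the cofactors and regulators of tubulin turnover, 7 were measured and 0 were called in either fit, with 1 at an unadjusted p under 0.05 and a median of 0.05. Arl2, the small GTPase bound by TBCD, differed by 0.11 (SE 0.07). Ttc5, which marks tubulin mRNA for decay when free tubulin is abundant, differed by 0.15 (SE 0.06, limma adjusted p = 0.619). Actins, the other main clients of CCT, gave 0 of 5 measured genes in either fit, with 0 at an unadjusted p under 0.05. The other, dimmer probe set of Acta2 was higher by 0.47 with rotenone. Its limma adjusted p was 0.398, and 0.0464 with the block, so it passed there. The treated array was the higher in each of the 6 same-numbered pairs.

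Heat shock chaperones gave 0 of 10 measured genes without the block, with 5 at an unadjusted p below 0.05. A second, dimmer probe set of Dnaja1 did pass, lower by 0.40 (limma adjusted p = 0.0418). In the fit with the block 4 fell: Hspa1b by 0.83, Hspa8 by 0.51, Hspa1a by 0.36 and Dnajb1 by 0.33, with limma adjusted p-values of 0.000602, 0.0037, 0.0186 and 0.0163.

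Loss of HtrA2 gave no call among the 10 genes with vehicle (0 of 10 in limma, beside 0.00807% of all genes). There were 0 at an unadjusted p below 0.05, beside 1.11%, and 0 called with the block, beside 0.0242%. The estimates ran from -0.14 for Tbce to 0.12 for Tbcc and their interval bounds from -0.44 to 0.43. The median was -0.04, beside 0.01 over all genes. The group means with vehicle were 12.75 ± 0.12 in wild type and 12.72 ± 0.11 in the knockout for Tcp1, and 11.62 ± 0.07 and 11.55 ± 0.08 for Cct8 (SD, n = 3).

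With rotenone, the knockout again gave 0 of 10 calls in limma, beside 0.00807% of all genes, with 0 at an unadjusted p below 0.05, beside 6%. The block gave 0 calls, beside 0.0565%, and Tbce alone had an unadjusted p below 0.05, beside 13.7% of all genes. The interval bounds ran from -0.60 to 0.46.

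Tbce, whose product binds alpha-tubulin and acts with TBCB, had the largest of these estimates. Its levels on replicates 1, 2 and 3 were 8.67, 8.46 and 8.38 in wild type with rotenone and 8.30, 8.21 and 8.09 in the knockout with rotenone. All 3 knockout arrays lay below all 3 wild-type arrays, as they did for 3.7% of all genes. With vehicle the levels overlapped: 8.62, 8.29 and 8.33 in wild type and 8.51, 8.29 and 8.01 in the knockout. The difference with rotenone was -0.30 (SE 0.14, limma adjusted p = 0.835, and 0.25 with the block).

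Several CCT probe sets lay lower in the rotenone-treated knockout, none past the threshold. The estimates were -0.19 for Tcp1, -0.18 for Cct5, -0.13 for Cct3 and -0.07 for Cct8, and 0.02 for Cct2. Without wild-type rotenone replicate 3, the highest array of all 5, they were -0.07 for Tcp1, -0.09 for Cct5, -0.05 for Cct3, -0.02 for Cct8 and 0.10 for Cct2. With the block and without that array they were -0.13, -0.13, -0.11, -0.05 and 0.06 in the same order. Of the other Cct3 probe sets, 1448178_a_at gave -0.23, 1459987_s_at -0.30 and 1449645_s_at -0.37, each with a limma adjusted p of 0.835. Without that array these were -0.13, -0.15 and -0.21, and with the block as well -0.15, -0.25 and -0.30. The 2 dimmest, 1426067_x_at and 1451915_at, gave -0.02 and -0.04, and 0.07 and -0.05 without that array. The knockout and wild-type arrays did not overlap for 1448178_a_at and 1449645_s_at, as for 3.8% of all probe sets lower in the knockout.

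For Tbca the estimate was 0.14 with that array and -0.04 without it, so the sign turned. Its probe sets also disagreed in size, at 0.35 for 1456205_x_at, 0.41 for 1437907_a_at and 0.10 for 1434588_x_at. Without that array these were 0.21, 0.26 and -0.07. Through 1437907_a_at the knockout levels with rotenone, 9.78 to 9.89, lay above the wild-type ones, 9.12 to 9.75. The share of all probe sets separated in that direction is not given here. The sign turned as well for Tbcb, Tbcc and Tbcd, from 0.03, 0.01 and -0.08 to -0.08, -0.07 and 0.02. With the block and without that array these were -0.12, 0.02 and 0.0024, so Tbcc kept its sign there. Of the 23 probe sets limma called 0, beside 0.00442% of all probe sets. An unadjusted p below 0.05 was found for 2 of them, beside 5.57% of all probe sets, and for 6 when the block was in the fit, beside 13%.

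**Figure D3:**
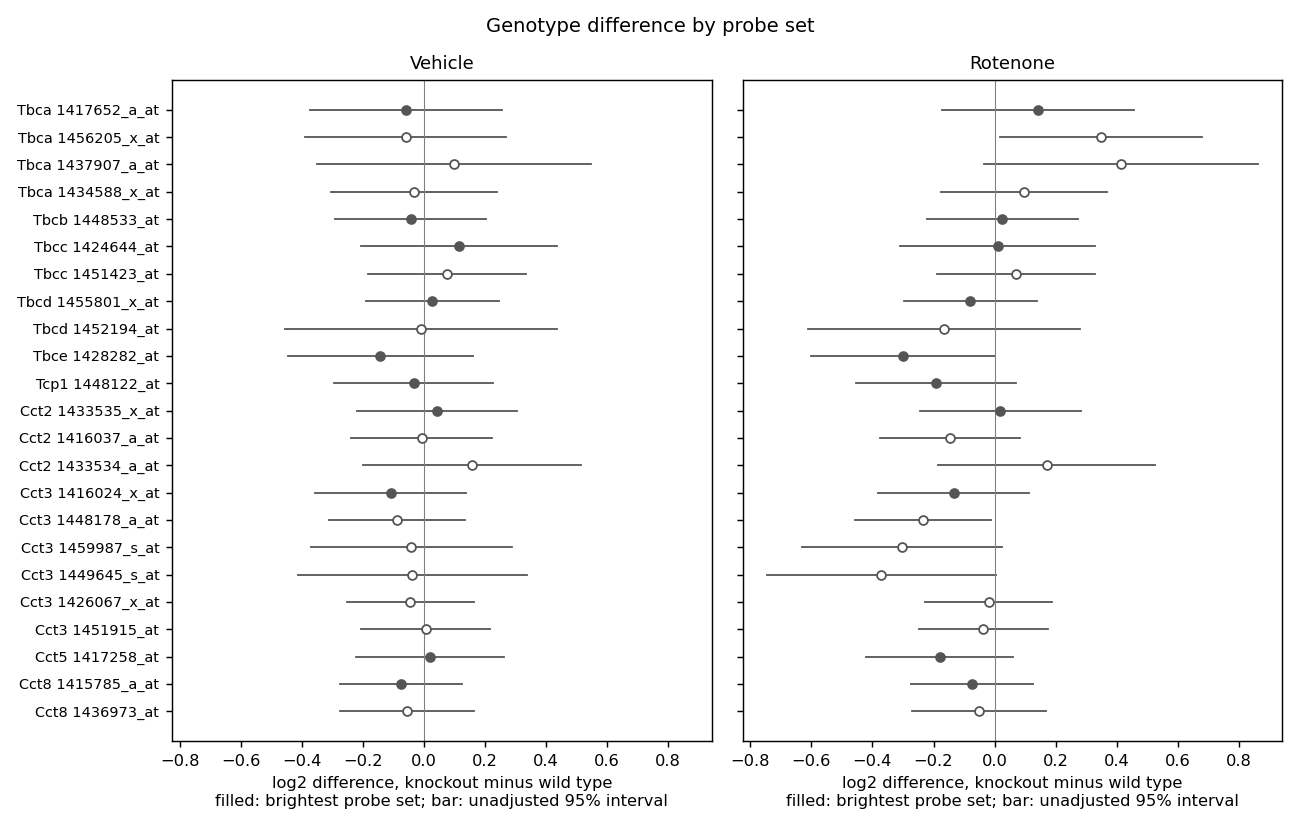
Knockout minus wild type (x axis, log2 difference) with vehicle (left) and rotenone (right) for all 23 probe sets (y axis). Points are limma estimates, filled for a gene's brightest probe set, and bars are unadjusted 95% intervals; with rotenone 3 Cct3 probe sets and Tbce lie lowest, between -0.23 and -0.37, and 2 Tbca probe sets highest, at 0.35 and 0.41.

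The rotenone effect was not called as different between genotypes for any of the 10 genes (0 of 10 in limma, with and without the block, beside 0% of all genes in either fit). There were 0 at an unadjusted p under 0.05, beside 0.339% of all genes. The interval bounds for the 10 genes ran from -0.58 to 0.64, and 5 of the 10 intervals lay within 0.5 of 0. The estimates ran from -0.20 to 0.20, and from -0.22 to 0.06 without wild-type rotenone replicate 3. With the block and without that array they ran from -0.15 for Cct5 to 0.02 for Cct8. In the same-numbered pairs Cct5 was higher with rotenone in all 3 of wild type and lower in all 3 of the knockout. Opposite signs of this kind, in either direction, were found for 1.19% of all genes.

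Between arrays numbered 3 and those numbered 1 and 2 in the same groups, limma called 4 of the 10 genes, with group in the fit. Tcp1 and Cct3 were higher on arrays numbered 3, and Tbcc and Tbce were lower. Over all genes 24.8% were called, 13.7% higher and 11.2% lower, and the count of 4 in 10 is to be read beside that share. The labels do not say what a number shares. The median of the 10 genes was 0.11, of the 5 CCT genes 0.16 and of the 5 cofactors -0.07, beside -0.04 over all genes. Leaving out wild-type rotenone replicate 3 gave medians of 0.11, 0.13 and 0.04.

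Tcp1 was higher by 0.22 (SE 0.07, limma adjusted p = 0.0353). Its replicate 3 levels were 12.90 and 13.14 in wild type with vehicle and rotenone, and 12.83 and 12.80 in the knockout. Those of replicates 1 and 2 were 12.69 and 12.67 in wild type with vehicle, 12.81 and 12.76 with rotenone, 12.71 and 12.61 in the knockout with vehicle, and 12.57 and 12.77 with rotenone. Replicate 3 was above both others in every group. Without wild-type rotenone replicate 3 the difference was 0.17 (limma adjusted p = 0.124).

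Cct3 was higher by 0.19 (SE 0.06, limma adjusted p = 0.0409), with replicate 3 at 12.78 and 12.88 in wild type with vehicle and rotenone and at 12.72 and 12.70 in the knockout. Replicates 1 and 2 lay between 12.41 and 12.68 over the 4 groups, below every replicate 3 array. Without wild-type rotenone replicate 3 the difference was 0.18 (limma adjusted p = 0.0992). Its probe sets 1459987_s_at and 1449645_s_at were both higher by 0.32 (limma adjusted p = 0.00303 and 0.0166). The other 3 gave 0.12, 0.12 and 0.06 and were not called. When that array was left out, 1448178_a_at gave 0.06, 1426067_x_at 0.07 and 1451915_at 0.10.

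For the remaining CCT genes the estimates were 0.16 for Cct2, 0.16 for Cct5 and 0.11 for Cct8, with limma adjusted p-values of 0.142, 0.0915 and 0.22. Tcp1, Cct3 and Cct5 had replicate 3 above both other arrays in all 4 groups, as 12% of all genes did. With the replicate number in the fit, the SD of Cct5 within groups went from 0.129 to 0.0524 and that of Cct3 from 0.134 to 0.0596. The SD of Tbca went from 0.188 to 0.206, so its spread did not follow the number.

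Tbcc was lower by 0.26 on arrays numbered 3 (SE 0.08, limma adjusted p = 0.0291) and its other probe set gave -0.16 (limma adjusted p = 0.132). In wild type with vehicle its replicate 3 level, 9.33, lay between those of the other arrays, and in the other 3 groups it lay below both. Tbce was lower by 0.22 (SE 0.07, limma adjusted p = 0.0341). Without wild-type rotenone replicate 3 the differences of Tbcc and Tbce were -0.27 and -0.22 (limma adjusted p = 0.0445 and 0.0507). The largest difference of any of the 23 probe sets was at Tbcd, where 1452194_at was higher by 0.39 (SE 0.09, limma adjusted p = 0.00605). The brightest Tbcd probe set gave 0.10 (limma adjusted p = 0.325), so the probe sets of this gene disagreed. Tbca and Tbcb gave -0.07 and 0.02. When that array was left out the brightest probe sets of Tbca, Tbcb and Tbcd gave 0.09, 0.12 and 0.04, so the sign turned for Tbca. In all, 7 of 23 probe sets were called, 5 higher and 2 lower, beside 23.9% of all probe sets.

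The count of 4 genes fell to between 0 and 2 when any array was left out. It was 0 without knockout vehicle replicate 3. It was 2 without wild-type vehicle replicate 1 or 2, knockout vehicle replicate 1, or knockout rotenone replicate 1 or 2. It was 1 without wild-type vehicle replicate 3, wild-type rotenone replicate 1, 2 or 3, knockout vehicle replicate 2, or knockout rotenone replicate 3. Tbcc stayed under the threshold in 7 of the 12 fits and Tcp1, Cct3 and Tbce in 3 each. The probe sets 1452194_at of Tbcd and 1459987_s_at of Cct3 stayed under it in all 12.

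**Figure D4:**
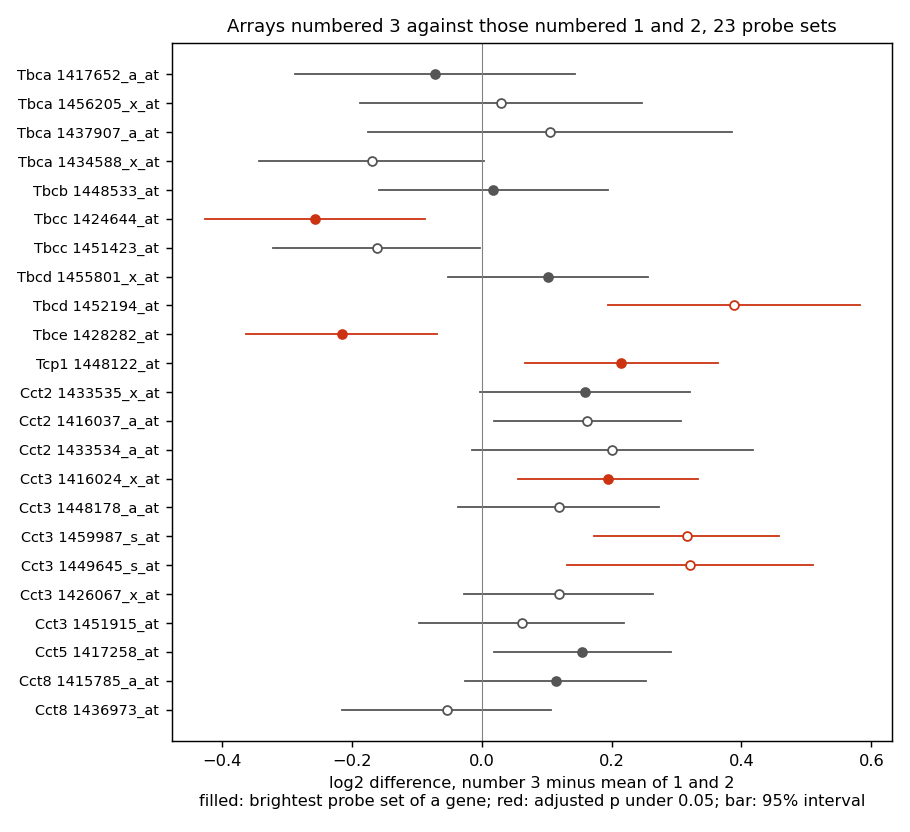
Level on arrays numbered 3 minus the mean of those numbered 1 and 2, with group in the fit (x axis, log2 difference), for all 23 probe sets (y axis). Points are limma estimates, filled for a gene's brightest probe set, bars are unadjusted 95% intervals and red marks an adjusted p under 0.05; 5 red probe sets of Tbcd, Tcp1 and Cct3 lie above 0 and those of Tbcc and Tbce below.

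Other gene lists moved with the arrays numbered 3. All 14 measured proliferation genes were higher, with a median of 1.26. Mki67, a marker of cycling cells, was higher by 1.55 (limma adjusted p = 2.11e-08). The mean level of this list was 10.32 to 10.45 on the 4 arrays numbered 3 and 8.80 to 9.38 on the other 8.

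Of 5 epithelial markers 3 were higher (Krt8, Krt18 and Krt19, by 0.73, 1.03 and 1.04), with a mean level of 7.08 to 7.70 against 6.58 to 6.81. Krt8, Krt18 and Krt19 lay above the lowest 40 percent of probe sets, and Epcam and Cdh1 lay within it. Of 7 measured leukocyte markers 4 were higher, led by Lyz2 with 2.26, with a mean level of 6.99 to 7.09 against 6.46 to 6.66. Lyz2, Csf1r and Cd3e lay above the lowest 40 percent of probe sets, and Ptprc, Itgam, Cd68 and Adgre1 lay within it. Endothelial markers gave 0 of 5 (0 at an unadjusted p under 0.05), neural markers 1 of 5, lower, and muscle markers 1 of 5, higher. Fibroblast markers gave 2 higher and 3 lower of 10. The part of these differences in those of the CCT and cofactor genes was not tested.

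Within the folding route, Cct7, the eta subunit, was higher by 0.26 on arrays numbered 3 (limma adjusted p = 0.00862), 1 of the 4 other CCT genes. The prefoldin subunits Vbp1 and Pfdn6 were higher by 0.42 and 0.36 (limma adjusted p = 0.00507 and 0.00861). Pdrg1, a prefoldin-like gene, was lower by 0.49 (limma adjusted p = 0.00036). Of the cofactor partners, Stmn1, which sequesters tubulin dimers, was higher by 0.78 (limma adjusted p = 3.5e-05). Of the 13 tubulins 7 were higher and 1, Tuba4a, was lower, with a median of 0.33. Heat shock chaperones gave 2 higher of 10, Hspa1a and Hspa1b.

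How the 10 genes varied among themselves over the 12 arrays was described by the root mean square of the difference between their deviations from their own means. The closest pair was Cct3 and Cct8, at 0.054. Tcp1 lay nearest to Cct3 (0.0844) and Cct5 nearest to Tcp1 (0.103), while Tbca and Tbcb lay nearest to each other (0.096). Nearness also crossed between cofactors and CCT: Tbcd lay nearest to Tcp1 (0.109) and Cct2 nearest to Tbcd (0.12). Tbcc and Tbce had no close member, with nearest distances of 0.19 (to Tbcb) and 0.201 (to Cct5). These values share the arrays, including wild-type rotenone replicate 3 and the number 3 arrays.

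By the same measure over 12383 other genes, those most like the mean of the 5 CCT genes were Tmed9 (0.0435), Acot9 (0.0471), Cers2 (0.048), Rnf187 (0.0484) and Actr8 (0.0499). The CCT mean itself varied by 0.10 around its own mean. The nearest single genes were Cox6c for Tbca (0.0552), Atp5o for Tbcb (0.0435), Ift140 for Tbcd (0.0575), Tfb2m for Tbce (0.0754) and Ifi35 for Tbcc (0.0907).

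Probe sets whose names end in _x_at or _s_at, 8 of the 23, can share sequence with other transcripts, so their values are uncertain as readings of 1 gene. They include the brightest probe sets of Tbcd, Cct2 and Cct3. The dimmest probe set, 1436973_at of Cct8, read 3.36 to 3.75, near the lowest value on any array, 3.19. It differed from 1415785_a_at in the sign of the number 3 difference, at -0.05 against 0.11, neither of them called. The dim probe set gave 0.03 without wild-type rotenone replicate 3, the same sign as the other.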

How the data were processed

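The 12 RNA samples were each hybridised to an Affymetrix array, 3 in each of 4 groups of genotype and treatment, grouped by their titles. The log2 values deposited by the authors come from RMA, according to the submitters' processing notes, with no version or settings given. RMA brings the array distributions together, so a change shared by most transcripts would not show, and differences near background are compressed. Scanner intensities were not analysed here; the number of arrays limits the precision.

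Of 22690 probe sets, 64 controls were left out. The annotation gave 1 symbol to 20380, several to 691 and none to 1555. All 10 genes matched the RefSeq table of assembly GRCm38.p6. limma 3.58.1 in R 4.3.3 (lmFit and eBayes, two-sided, 1 fit of 4 group means over 12 arrays) gave every adjusted p and was tested on simulated data. The number 3 contrast came from a fit of group and replicate number.

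Same-numbered arrays of different groups deviated together: r was 0.289 to 0.829 over the 18 such pairs, and for 11 of 12 arrays the best partner had the same number. Within numbers 1 and 2, r ran from 0.289 to 0.554, against -0.053 to 0.476 between an array 1 and an array 2. The numbers were thus taken to pair the arrays, from the data and not the labels.

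Genes and lists were chosen with earlier results of these data known. All 10 genes are named, with their other probe sets counted and named where values are given; of other lists, the text names genes past the threshold, at most 5 a list and comparison, and nearest genes by root mean square difference. Cct4, Pdcl, Arl2, Ttc5, Acta2, Dnaja1, Epcam, Cdh1, Cd3e, Itgam, Ptprc, Col1a1 and Vim fall outside that rule and were named with their values seen. Alternatives were the replicate block, a filter on the lowest 40 percent of probe sets, quantile normalization, median centring, another variance prior, the mean of a gene's probe sets, each array left out, and replicates 1 and 2 alone. Promoters are RefSeq windows searched on both strands.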

Additional observations from a re-analysis of the deposited data

Results flagged for a closer look

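For Cct5, the epsilon subunit of CCT, rotenone minus vehicle was above 0 in all 3 wild-type pairs and below 0 in all 3 knockout pairs. The differences were 0.10, 0.02 and 0.23 in wild type and -0.10, -0.14 and -0.01 in the knockout, which is what set it apart. The knockout effect minus the wild-type effect was -0.20 (SE 0.16), and -0.11 without wild-type rotenone replicate 3, where the wild-type effect fell from 0.12 to 0.03. limma's test of that difference did not pass (adjusted p = 1, with and without the replicate number as a block), and no other of the 10 genes showed opposite signs in all pairs. Over all genes 1.19% did. No group held more than 3 arrays, so single arrays were not tested as outliers.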

How the results depend on the processing

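For rotenone (mean effect, wild type, knockout), for the knockout with vehicle and with rotenone, and for the genotype difference of the rotenone effect, 0 of the 10 genes were called under every alternative run. These were the replicate block, the dim filter, quantile normalization, median centring, eBayes with trend and robust, each array left out, and replicates 1 and 2 alone. The block with each array left out, and with replicates 1 and 2 alone, was chosen after seeing the data and also gave 0. The replicate block thus changed no call: all 60 single-gene results kept their side of the threshold with it, as did all 60 with the dim filter. The rotenone median of the 10 genes ran from -0.01 to 0.04 with each array left out, and from 0.0044 to 0.0342 with the block as well. For arrays numbered 3, where 4 genes were called, leaving out each array gave 0 to 2 calls, and the contrast of replicate 3 with replicate 2 alone gave 1 (3 with replicate 1 alone). Those fits hold fewer arrays, and the cause was not otherwise tested. The median there ran from 0.09 to 0.13. Quantile normalization and median centring moved the median of all genes by -0.02 and -0.01. Precision here rests on 3 arrays a group, and signal over background is unknown.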
